A study of Homo sapiens with 18 samples.

Results

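The comparison concerned mitochondria-depleted senescent fibroblasts transfected with mitochondrial DNA (mtDNA) and senescent fibroblasts that keep their mitochondria, and 6 of the 18 RNA-seq libraries of the series hold it, 3 from each state. Members were chosen by label alone, and all genes that passed a filter on low counts were described, 16994 of the 57500 in the table. It addresses which transcripts mtDNA returns to the level of intact senescent cells, which it takes past that level and which it leaves lost.

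IMR90 is an established line of human lung fibroblasts, here engineered so that the uncoupler CCCP triggers the removal of mitochondria. Sen (IR) cells were made senescent by X-ray irradiation with 20 Gy and kept their mitochondria. Sen (IR) + CCCP + mtDNA cells received the same irradiation, CCCP from day 1 for 48 h, and on day 10 a lipid transfection of 10 µg of mtDNA, purified from IMR90 mitochondria, per 500000 cells. Collection was on day 12. Sen (IR) + CCCP cells, depleted and given nothing, were used to tell what depletion alone had removed, and proliferating cells (Prol) only as a reference level. The labels list no group given the transfection reagent without mtDNA, so an effect of mtDNA and one of the transfection cannot be told apart. They also do not say whether replicates came from separate cultures. The p-values thus measure the spread between libraries within groups, pooled over the whole series, which may be technical.

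Cytosolic DNA, including DNA that escapes from mitochondria, is bound by cGAS, which makes a second messenger that activates STING. STING recruits TBK1, which phosphorylates IRF3 and leads to interferon-β, and secreted interferon acts through its receptor, STAT factors and IRF9 on interferon-stimulated genes (ISGs). STING also feeds into NF-κB, a main driver of the senescence-associated secretory phenotype (SASP), the mixture of cytokines, chemokines, proteases and growth factors that senescent fibroblasts release. IRF9 complexes bind the interferon-stimulated response element (ISRE), and NF-κB dimers bind κB elements.

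The promoters of 5 genes on which the results turn are shown because they carry these elements. All sequences are the strand of the gene from RefSeq, build GRCh38.p14, limited to bases before the transcription start, with matches in capitals. The motifs searched were the ISRE core GAAANNGAA, the STAT element (GAS) TTCNNNGAA, and the κB forms GGGANTTTC, GGGANTTCC and GGAATTTCC, each on both strands. Matches of the ISRE core may overlap each other, as in ISG15. Only ISRE and κB matches are capitalised. IFIT1 (chr10:89392493-89392544, plus strand) holds 2 matches of the ISRE core on its opposite strand, the nearer ending 93 bases before the start. ISG15 (chr1:1013369-1013419, plus strand) holds 3 overlapping matches. CXCL10 (chr4:76023596-76023733, minus strand) holds 1 ISRE core and 2 κB matches. IL6 (chr7:22727112-22727150, plus strand) and CXCL8 (chr4:73740463-73740501, plus strand) hold 1 κB match each and no ISRE core, with the κB match ending 64 and 82 bases before the start, respectively.
IFIT1: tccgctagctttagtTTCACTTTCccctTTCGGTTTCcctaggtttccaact
ISG15: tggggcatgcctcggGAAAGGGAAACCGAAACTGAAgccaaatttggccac
CXCL10: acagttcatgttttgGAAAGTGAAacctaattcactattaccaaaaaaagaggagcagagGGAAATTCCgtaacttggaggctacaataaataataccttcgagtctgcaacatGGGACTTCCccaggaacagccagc
IL6: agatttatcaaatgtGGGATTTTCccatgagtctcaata
CXCL8: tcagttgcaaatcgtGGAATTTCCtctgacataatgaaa
In the order of the results that follow, IFIT1 and ISG15 ended above the level of Sen (IR), and CXCL10, IL6 and CXCL8 below it. OAS1 held neither an ISRE core nor a κB match in the 250 bases before its start, and CCL5 was not matched in the table.

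Depth was similar in both states, with 28434566 to 46224280 counts on genes in Sen (IR) and 25964689 to 28988516 in Sen (IR) + CCCP + mtDNA. Sen (IR) replicate 3 stood apart from replicates 1 and 2, with a chi-square per degree of freedom over genes of 27.7 and 22.2 against them, where replicates 1 and 2 gave 3.3 between them. It was the highest Sen (IR) library for 12 of the 13 mtDNA-encoded genes and the lowest for 17 of the 22 collagen and matrix genes. The latter was not particular to matrix genes. It was also the lowest for 23 of 26 cholesterol and 22 of 24 glycolysis genes, but for 12 of 36 ISGs. Among the mtDNA-treated libraries, replicate 2 had the lowest value of 35 of the 36 ISGs. Levels are counts per 1000000 (CPM), with library sizes scaled by TMM. Tests are edgeR's quasi-likelihood test in one model of all 18 libraries, and adjusted p-values follow Benjamini and Hochberg over the 16994 genes. The model also holds depleted cells given mtDNA and acetate, of which replicate 2 stood apart. Its median log2 difference of ISGs from the Sen (IR) mean was 1.82, against 0.173 and 0.184 in replicates 1 and 3. This spread enters the estimate that all groups share. In a principal component analysis of the 9 libraries of the intact, depleted and transfected senescent groups, the first component held 73.3% of the variance and set Sen (IR) (scores -63 to -59.7) apart from the other groups (27.4 to 35), while the second, with 16.2%, set depleted cells with mtDNA (20.7 to 27.7) apart from those without (-26.9 to -24.9).

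Against Sen (IR), 5946 genes were higher (35% of those tested) and 5520 lower (32.5%) in Sen (IR) + CCCP + mtDNA, at a median log2 fold change over all genes of 0.01. At least a 2-fold change was found for 1505 higher (8.86%) and 2080 lower genes (12.2%). Sen (IR) + CCCP differed from Sen (IR) at 5776 higher (34%) and 5312 lower genes (31.3%), and mtDNA moved 1814 genes up (10.7%) and 1257 down (7.4%) from Sen (IR) + CCCP. Without Sen (IR) replicate 3 the counts against Sen (IR) were 5844 and 5372, and without mtDNA replicate 2 they were 5792 and 5192. The lower count against Sen (IR) + CCCP was 737 without replicate 1 of that group, and 778 and 777 without mtDNA replicates 1 and 3. These 3 comparisons share libraries, so their values are set side by side and not correlated. In bulk RNA, a change in the number of cells that express a gene and a change in RNA per cell cannot be told apart.

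The labels were checked on the 13 protein-coding genes of mtDNA. Together they took 1.94%, 1.75% and 2.64% of the counts in Sen (IR), and 0.0519%, 0.0461% and 0.0534% in Sen (IR) + CCCP + mtDNA, so the groups did not overlap. The difference was -2.06 percentage points (p = 0.1 by an exact two-sided permutation test, which cannot go lower with 3 libraries in each group). Transfection did not raise the share, which averaged 0.0505% ± 0.00387 (SD, n = 3) with mtDNA. Depleted cells without mtDNA had 0.122% ± 0.0116 (SD, n = 3). All 13 genes were lower than in Sen (IR), with a median log2 fold change of -5.46, and 11 of them were also lower than in Sen (IR) + CCCP. MT-ND5, a subunit of complex I, was measured at 2260, 2050 and 3200 CPM in Sen (IR), 105, 93.1 and 86.7 CPM in Sen (IR) + CCCP, and 42.4, 32.3 and 41.8 CPM with mtDNA. Some reads of these genes may come from copies of mtDNA in the nuclear genome.

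Cells of other types were sought with fixed markers. None of 10 leukocyte markers passed the filter, and their summed level was 0.369 to 0.572 TPM in Sen (IR) and 0.212 to 0.934 TPM with mtDNA. In these same groups the 6 endothelial markers summed to 0.400 to 0.546 and 0.123 to 0.426 TPM, and the 6 epithelial markers to 3.17 to 5.40 and 2.42 to 4.44 TPM. The 12 fibroblast markers were present in all libraries, at 12000 to 14450 summed TPM in Sen (IR) and 5809 to 6057 TPM with mtDNA. Of these, 11 were lower with mtDNA, among them collagen genes, and VIM, which encodes the filament protein vimentin, was not called. In Sen (IR) + CCCP all 12 were already lower, with a median log2 fold change of -1.51, against -1.56 with mtDNA. Their sum there was 6494, 6500 and 6715 TPM.

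**Figure D1:**
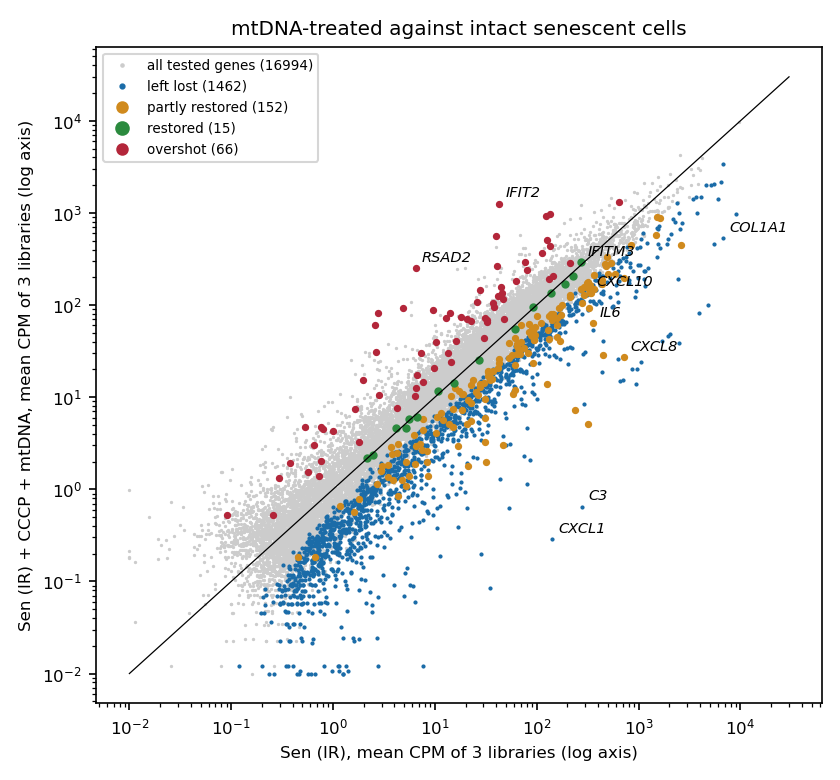
Mean CPM of each tested gene in Sen (IR) (x axis, log) and in Sen (IR) + CCCP + mtDNA (y axis, log), 3 libraries each, with the line of equality; means under 0.01 CPM are drawn at that value. Colours mark genes lost with CCCP by their state after mtDNA: most of the 1462 genes left lost and the 152 partly restored lie below the line, the 15 restored lie close to it and the 66 overshot lie above it.

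Genes were then sorted by what depletion had done to them. A gene was called lost where Sen (IR) + CCCP was at least 2-fold below Sen (IR) at an adjusted p under 0.05, which held for 1828 genes. Of these, 1462 (80%) were left lost, that is, still below Sen (IR) and not above Sen (IR) + CCCP. Their median log2 fold change between mtDNA and Sen (IR) + CCCP was 0.00. Another 152 (8.32%) were partly restored, above Sen (IR) + CCCP and below Sen (IR). A further 15 (0.821%) were restored, meaning above Sen (IR) + CCCP, not called against Sen (IR) and with a 95% interval of the difference within 1.5-fold either way. Another 33 (1.81%) met the first 2 conditions with a wider interval, 66 (3.61%) overshot Sen (IR), and 100 (5.47%) were unresolved. Of the 1307 genes gained with CCCP by the mirrored rule, 1085 (83%) were left gained, still above Sen (IR) and not below Sen (IR) + CCCP, and 2 returned, LINC00641 and TNFRSF10D, a decoy receptor for TRAIL. Among genes neither lost nor gained, 967 were newly high, above both Sen (IR) and Sen (IR) + CCCP, and 686 newly low. The classes were cut from the measured values themselves, so these counts are a description. The share left lost was 72.6% to 81.6% under the alternative processing, including each library left out in turn.

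**Figure D2:**
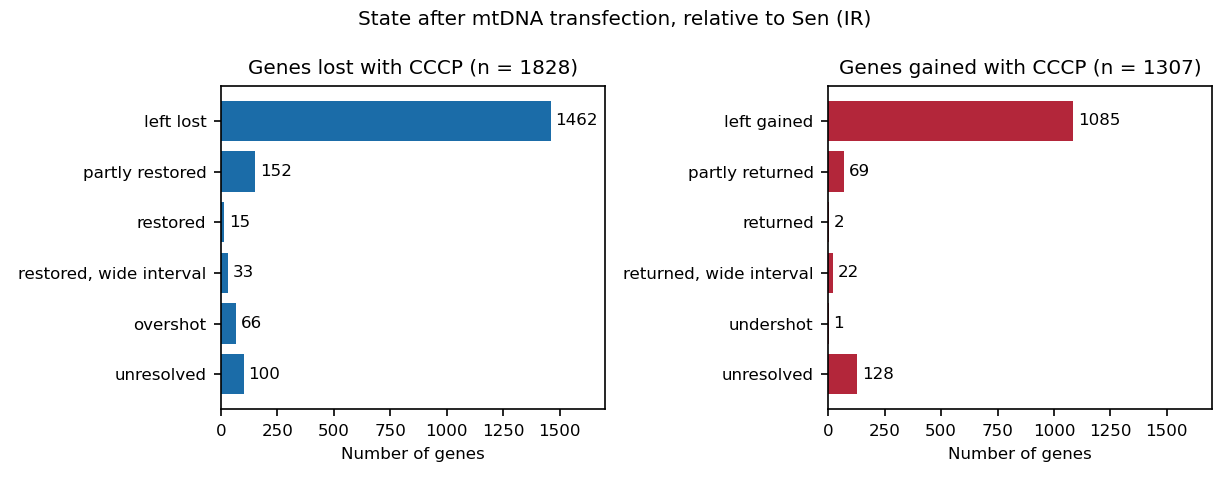
Number of genes in each state after mtDNA transfection, for the 1828 genes lost (left) and the 1307 genes gained (right) with CCCP. Bars start at 0, and the longest bars are the 1462 genes left lost and the 1085 left gained; unresolved genes met none of the other definitions.

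The motifs were counted in the promoters of each class. Of the 27305 RefSeq promoters of 300 bases (250 before and 50 after the start), 8.29% held the ISRE core, 7.88% the GAS and 3.43% a κB form. Promoters were matched for 11861 of the tested genes, of which 6.66% held the ISRE core. The core was found in 23 of 41 matched overshot genes (56.1%), 20 of 114 partly restored genes (17.5%), and 54 of 952 left lost genes (5.67%). κB forms were found in 6 of 41 overshot (14.6%), 18 of 114 partly restored (15.8%) and 39 of 952 left lost genes (4.1%). The GAS was found in 8 of 41 (19.5%), 10 of 114 (8.77%) and 53 of 952 (5.57%), respectively. A match describes the letters in this window only.

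Sensors of cytosolic RNA were mostly above Sen (IR), and those of cytosolic DNA in a smaller share. Of 11 tested DNA-sensing genes, 6 were higher (54.5%, against 35% of all genes) and 3 lower (27.3%, against 32.5%). Their median log2 fold change was 0.28, and in Sen (IR) + CCCP 5 of the 11 were already higher. CGAS, the DNA sensor itself, was measured at 8.42, 8.48 and 7.74 CPM in Sen (IR) and 18.5, 16.6 and 16.1 CPM with mtDNA (log2 fold change 1.05, SE 0.10, adjusted p = 3.8e-09), and the groups did not overlap. Its log2 fold change in Sen (IR) + CCCP, before any mtDNA, was already 0.72. IFI16, a nuclear and cytosolic DNA sensor, rose from 78.3, 79.7 and 74.2 to 457, 382 and 425 CPM. IKBKE, a kinase related to TBK1, was lower, at 14.1, 15.7 and 15.4 CPM in Sen (IR) and 6.03, 3.30 and 5.04 CPM with mtDNA. Of 10 RNA-sensing genes, 9 were higher (90%, against 35% of all genes), at a median of 0.90 against 0.01 over all genes. RIGI, which binds RNA with a 5′ triphosphate, was measured at 125, 125 and 127 CPM in Sen (IR), 46.8, 43.5 and 44.2 CPM in Sen (IR) + CCCP, and 571, 421 and 533 CPM with mtDNA. IFIH1, which binds long double-stranded RNA, rose from 26.3, 27.8 and 28.8 CPM in Sen (IR) to 166, 114 and 156 CPM. TLR3, the endosomal receptor for double-stranded RNA, was the RNA sensor not called, with overlapping groups of 11.4, 11.3 and 12.2 CPM against 18.8, 9.98 and 16.1 CPM.

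Interferon-β was detected after transfection and in none of the groups it was compared with. IFNB1 (chr9:21077104-21077942) had 0 counts in each of the 9 libraries of Prol and of senescent cells with or without mitochondria, and 25, 32 and 28 counts in Sen (IR) + CCCP + mtDNA (0.903, 1.15 and 0.904 CPM). With the floor set at 3 counts per library, it was at least 10.2-fold higher than in Sen (IR) (adjusted p = 1.6e-04). The floor covers counting error only. Of the 7 interferons and receptors tested, it was the one that rose. IFNE, the other interferon gene tested, fell to 0.217, 0.108 and 0.161 CPM from 0.587, 0.422 and 0.482 CPM. IFNGR2, a chain of the interferon-γ receptor, was partly restored, at 93.2, 93.8 and 92.9 CPM in Sen (IR), 34.7, 35.1 and 36.2 CPM in Sen (IR) + CCCP, and 44.2, 39.2 and 42.4 CPM with mtDNA.

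Of the 12 IRF and STAT factors tested, 5 were higher than in Sen (IR) (41.7%, near the 35% of all genes). Another 2 were lower (16.7%, against 32.5%), and the median was 0.17. IRF7, which amplifies interferon transcription and is itself an ISG, was measured at 2.49, 1.76 and 1.62 CPM in Sen (IR), 0.641, 0.631 and 0.907 CPM in Sen (IR) + CCCP, and 18.8, 14.8 and 12.1 CPM with mtDNA (log2 fold change 2.92, SE 0.28, adjusted p = 5.1e-09). IRF9, the DNA-binding partner of STAT factors at the ISRE, was restored, with 4.25, 4.14 and 3.99 CPM in Sen (IR) and 4.99, 4.52 and 4.39 CPM with mtDNA, and was chosen for mention after its values were seen. STAT3 and STAT6, which act downstream of interleukins, were the factors called lower, with log2 fold changes of -0.20 and -0.55.

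The listed ISGs rose past the intact level in most cases. The list was written with earlier results of these data known, so its shares depend on which genes it holds. Of interferon-responsive genes outside it, GBP1 and CXCL10 did not rise past Sen (IR), whereas CXCL11 and BATF2 did. All 36 listed ISGs passed the filter, and 32 of them (88.9%) were higher than in Sen (IR), where 35% of all genes were, at a median log2 fold change of 1.71 against 0.01 over all genes. The 4 that were not called were IFI6, IFI27, BST2 and TRIM22. In Sen (IR) + CCCP, 33 of the 36 were lower than in Sen (IR) (91.7%, against 31.3% of all genes), at a median of -2.85. All 36 were higher with mtDNA than in Sen (IR) + CCCP (100%, against 10.7%), at a median of 5.13. By class, 27 were overshot, 5 newly high, 3 restored with a wide interval and 1 restored. Their summed level was 2917, 2947 and 2633 TPM in Sen (IR), 577, 600 and 632 TPM in Sen (IR) + CCCP, and 13170, 9372 and 11950 TPM with mtDNA, where Prol held 1350 to 1420 TPM. By this sum the 3 transfected libraries lay above every Sen (IR) library, with replicate 2 the lowest of them. Without that replicate, and likewise without Sen (IR) replicate 3, 32 ISGs were higher (median 1.83 and 1.74).

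**Figure D3:**
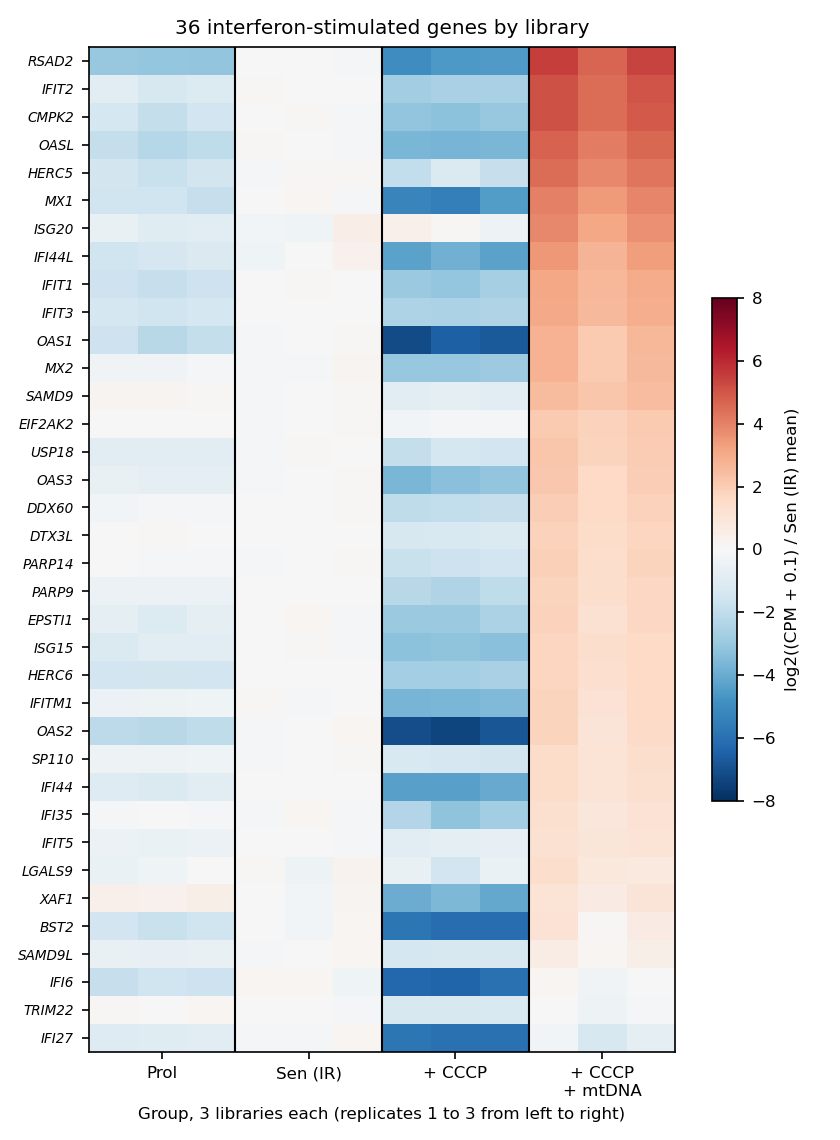
Level of each of the 36 ISGs in every library of Prol and of the intact, depleted and transfected senescent groups, as log2 of CPM plus 0.1 relative to the Sen (IR) mean (red higher, blue lower), with the largest rise with mtDNA at the top. Most genes are blue with CCCP and red with mtDNA, RSAD2 and IFIT2 lead, and IFI6, TRIM22 and IFI27 at the bottom are near or below the Sen (IR) level.

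Among genes of at least 5 CPM the largest rise was that of RSAD2, which encodes the antiviral enzyme viperin (chr2:6865557-6898239), at 6.66, 6.6 and 6.13 CPM in Sen (IR), 0.111, 0.177 and 0.181 CPM in Sen (IR) + CCCP, and 309, 168 and 275 CPM with mtDNA (log2 fold change over Sen (IR) 5.28, SE 0.35, adjusted p = 1.3e-11). IFIT2, an RNA-binding antiviral protein (chr10:89283694-89309271), was measured at 45.0, 41.7 and 41.8 CPM in Sen (IR) and 1460, 930 and 1390 CPM with mtDNA (log2 fold change 4.88, SE 0.47, adjusted p = 5.6e-09), from 6.21, 6.99 and 7 CPM in Sen (IR) + CCCP. No transfected library of either gene overlapped an intact one. CMPK2, a mitochondrial nucleotide kinase that lies beside RSAD2, rose from 2.82, 2.91 and 2.62 to 97.9, 63.2 and 85.3 CPM. OASL and HERC5, an OAS-like protein and the main ligase for ISG15, had log2 fold changes of 4.54 and 4.27. IFIT1, whose ISRE cores are printed above, rose from 118, 130 and 118 to 1050, 776 and 936 CPM (log2 fold change 2.91). MX1, a dynamin-like GTPase that blocks viruses, rose from 38.6, 43.6 and 37.5 to 661, 426 and 589 CPM (3.81).

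Other ISGs rose by less. ISG15, the ubiquitin-like modifier, was measured at 46.8, 48.6 and 40.3 CPM in Sen (IR), 4.60, 4.82 and 4.42 CPM in Sen (IR) + CCCP, and 149, 121 and 137 CPM with mtDNA (log2 fold change 1.58, SE 0.25). OAS1, which makes the activator of RNase L, had 0, 2 and 1 counts in Sen (IR) + CCCP, 12.8, 14.5 and 14.6 CPM in Sen (IR), and 98.5, 60.1 and 88.6 CPM with mtDNA (2.57). OAS2, of the same family, rose from 33.7, 36 and 41.1 to 128, 75.5 and 109 CPM (1.5, SE 0.40, adjusted p = 0.0024). EIF2AK2, the kinase PKR, belonged to the newly high genes, since it was neither lost nor gained with CCCP. It was measured at 196, 211 and 226 CPM in Sen (IR), 178, 192 and 190 CPM in Sen (IR) + CCCP, and 913, 753 and 894 CPM with mtDNA (2.02). SAMD9, an antiviral factor, was also newly high, at 63.7, 65.2 and 70.9 CPM against 390, 314 and 375 CPM. A newly high gene can have a called change with CCCP of less than 2-fold, as CGAS had (0.72). Before scaling for depth, SAMD9 held 2713, 1701 and 2060 counts in Sen (IR) and 1252, 1583 and 1018 in Sen (IR) + CCCP.

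Of the 15 restored genes, 3 were in a list (IRF9, IL15, a cytokine of T and NK cells, and TRIM22) and 12 in none. IFITM3, a membrane protein that blocks viral entry, was measured at 266, 285 and 267 CPM in Sen (IR), 102, 99.1 and 106 CPM in Sen (IR) + CCCP, and 315, 266 and 288 CPM with mtDNA. Its difference from Sen (IR) was 0.09 on the log2 scale with a 95% interval of -0.16 to 0.34. GBP1, an interferon-inducible GTPase, came back to 164, 101 and 146 CPM from 16.7, 16.7 and 19.1 CPM, against 143, 145 and 125 CPM in Sen (IR) (difference -0.01, interval -0.56 to 0.55). TRIM22, an antiviral member of the TRIM family, was at 197, 194 and 178 CPM and 192, 142 and 179 CPM (difference -0.15, interval -0.44 to 0.14). APOL2, an apolipoprotein L, and ATP10A, a lipid flippase, were restored too, with intervals of -0.28 to 0.38 and -0.50 to 0.28. For all 5, intact and transfected libraries overlapped. IFI6, an antiviral ISG, regained its level from 2.87, 2.60 and 3.52 CPM to 259, 192 and 224 CPM, against 257, 258 and 184 CPM in Sen (IR), but with an interval of -0.61 to 0.51. The interval of IFI27 ran from -1.55 to 0.12, and its transfected libraries (14.9, 7.18 and 10.1 CPM) lay below all those of Sen (IR) (16.8, 16.3 and 19.8 CPM).

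MHC class I presentation was mostly restored in part. Of 17 genes tested, all 17 were lower in Sen (IR) + CCCP than in Sen (IR) (100%, against 31.3% of all genes). From there 15 rose with mtDNA (88.2%, against 10.7%). Still lower than in Sen (IR) were 12 (70.6%, against 32.5%), while 4 were higher (23.5%, against 35%). The median was -0.50. All 17 were lowest in replicate 2 of the transfected libraries, and without it 10 were lower and 5 higher (median -0.33). HLA-B, a class I heavy chain, was measured at 496, 460 and 359 CPM in Sen (IR), 93.5, 94.3 and 96.9 CPM in Sen (IR) + CCCP, and 211, 165 and 181 CPM with mtDNA (log2 fold change -1.24, SE 0.12). The gap closed by 43.9% on the log2 scale. TAPBP, which loads peptides onto class I molecules, regained 19.95%. The members that were above Sen (IR) included PSMB8 and PSMB9, catalytic subunits of the immunoproteasome, at 25.1, 25.8 and 20.3 against 47.9, 34.0 and 40.5 CPM, and 6.85, 6.75 and 5.75 against 14.9, 9.48 and 13.1 CPM. HLA genes resemble each other closely, so reads can be split between them.

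Chemokines and cytokines divided into genes that overshot, genes restored in part and genes left lost. CXCL10 and CXCL11 are ligands of CXCR3, a chemokine receptor of T cells. CXCL10 was measured at 341, 343 and 313 CPM in Sen (IR), 1.23, 1.29 and 1.63 CPM in Sen (IR) + CCCP, and 183, 82.3 and 145 CPM with mtDNA, so that 83.8% of the loss was regained on the log2 scale and the level stayed below Sen (IR) (log2 fold change -1.28, SE 0.36, adjusted p = 0.0037). CXCL11 overshot, from 9.34, 9.13 and 12.6 to 48.9, 26.1 and 43.2 CPM (1.93, SE 0.34). CCL5, which attracts T cells and monocytes, had 0 counts in each library of Sen (IR) + CCCP, 19, 16 and 26 counts in Sen (IR), and 104, 72 and 88 counts with mtDNA (log2 fold change over Sen (IR) 2.26, adjusted p = 6.4e-06). Against Sen (IR) + CCCP it was at least 34.2-fold higher with the floor of 3 counts per library. CCL2, the monocyte chemokine, stayed low, at 239, 266 and 214 CPM in Sen (IR), 4.49, 3.73 and 4.79 CPM in Sen (IR) + CCCP, and 9.43, 4.70 and 7.78 CPM with mtDNA. CCL20 was left lost, at 14.8, 19.9 and 16 CPM in Sen (IR) and 0.217, 0.431 and 0.516 CPM with mtDNA. Of the 15 genes of this list only 8 passed the filter. Of those, 2 were higher (25%, against 35% of all genes) and 4 lower (50%, against 32.5%), at a median of -0.96.

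The neutrophil-attracting CXC chemokines, which signal through CXCR2, were lower than in Sen (IR) in 6 of 6 tested genes. This was 100%, against 32.5% of all genes, at a median log2 fold change of -4.15. CXCL8, the most abundant of them by TPM (1270 in Sen (IR)), was measured at 626, 702 and 842 CPM in Sen (IR), 13.9, 13.8 and 12.3 CPM in Sen (IR) + CCCP, and 23.6, 28.9 and 29.0 CPM with mtDNA (log2 fold change -4.73, SE 0.13, adjusted p = 1.0e-17). It was above Sen (IR) + CCCP by 1.02 on the log2 scale, which regained 17.7% of the loss. CXCL1 was left lost, at 141, 152 and 127 CPM in Sen (IR), 0.167, 0.151 and 0 CPM in Sen (IR) + CCCP, and 0.289, 0.323 and 0.258 CPM with mtDNA (log2 fold change -8.90, SE 0.21). In CXCL6 the 3 transfected libraries held 4, 1 and 0 counts, against 311, 136 and 186 in Sen (IR). All 6 of their promoters held a κB form and 2 held the ISRE core.

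Of 19 SASP interleukins, colony-stimulating and TNF-family factors tested, 11 were lower (57.9%, against 32.5% of all genes) and 6 higher (31.6%, against 35%). Their median was -1.17. IL6 was restored in part, at 364, 383 and 327 CPM in Sen (IR), 18.6, 18 and 17.9 CPM in Sen (IR) + CCCP, and 71.6, 54.0 and 66.3 CPM with mtDNA (log2 fold change over Sen (IR) -2.49, SE 0.11, adjusted p = 2.4e-14). It regained 42.2% of its loss on the log2 scale, and in Prol it was at 65.2, 64.5 and 67.5 CPM. IL1A, an upstream cytokine of the SASP, went from 0.474, 0.606 and 0.870 CPM in Sen (IR) + CCCP to 1.55, 1.18 and 1.48 CPM, against 7.70, 10.4 and 7.33 CPM in Sen (IR). IL1B was left lost, at 30.0, 31.9 and 30.9 CPM in Sen (IR) and 7.51, 5.82 and 5.55 CPM with mtDNA. CSF2, the growth factor GM-CSF, was left lost too, with 19.3, 22.0 and 20.7 against 0.650, 0.574 and 0.646 CPM, and CSF3 had 0 counts in all transfected libraries against 19, 24 and 18 in Sen (IR). TNFSF13B, the B-cell survival factor BAFF, ran the other way, from 4.06, 4.41 and 4.51 to 29.4, 16.9 and 28 CPM (log2 fold change 2.52). IL24 was gained with CCCP and higher still with mtDNA, at 4.29, 5.56 and 5.44, then 22.0, 23.5 and 20.7, then 36.1, 36.2 and 35.9 CPM.

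NF-κB components and targets were lower in 13 of 20 tested genes (65%, against 32.5% of all genes). In 3 they were higher (15%, against 35%), and the median over the 20 was -0.65. Relative to Sen (IR) + CCCP, 15 of the 20 rose (75%, against 10.7% of all genes). By class, 9 of the 20 were partly restored. VCAM1 and ICAM1, adhesion molecules for leukocytes, were measured at 345, 329 and 273 CPM and at 463, 480 and 388 CPM in Sen (IR), at 1.11, 1.14 and 1.60 CPM and at 7.80, 8.10 and 9.07 CPM in Sen (IR) + CCCP, and at 6.68, 3.34 and 5.33 CPM and at 32.8, 22.2 and 30.6 CPM with mtDNA. They regained 25.4% and 31.1% of the loss on the log2 scale. TNFAIP3, the feedback inhibitor A20, was among the 3 higher genes, from 26.5, 26.0 and 28.3 to 47.7, 45.0 and 49.8 CPM (log2 fold change 0.82). RELA, the p65 subunit, was also higher (0.67), as it was in Sen (IR) + CCCP (0.58).

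**Figure D4:**
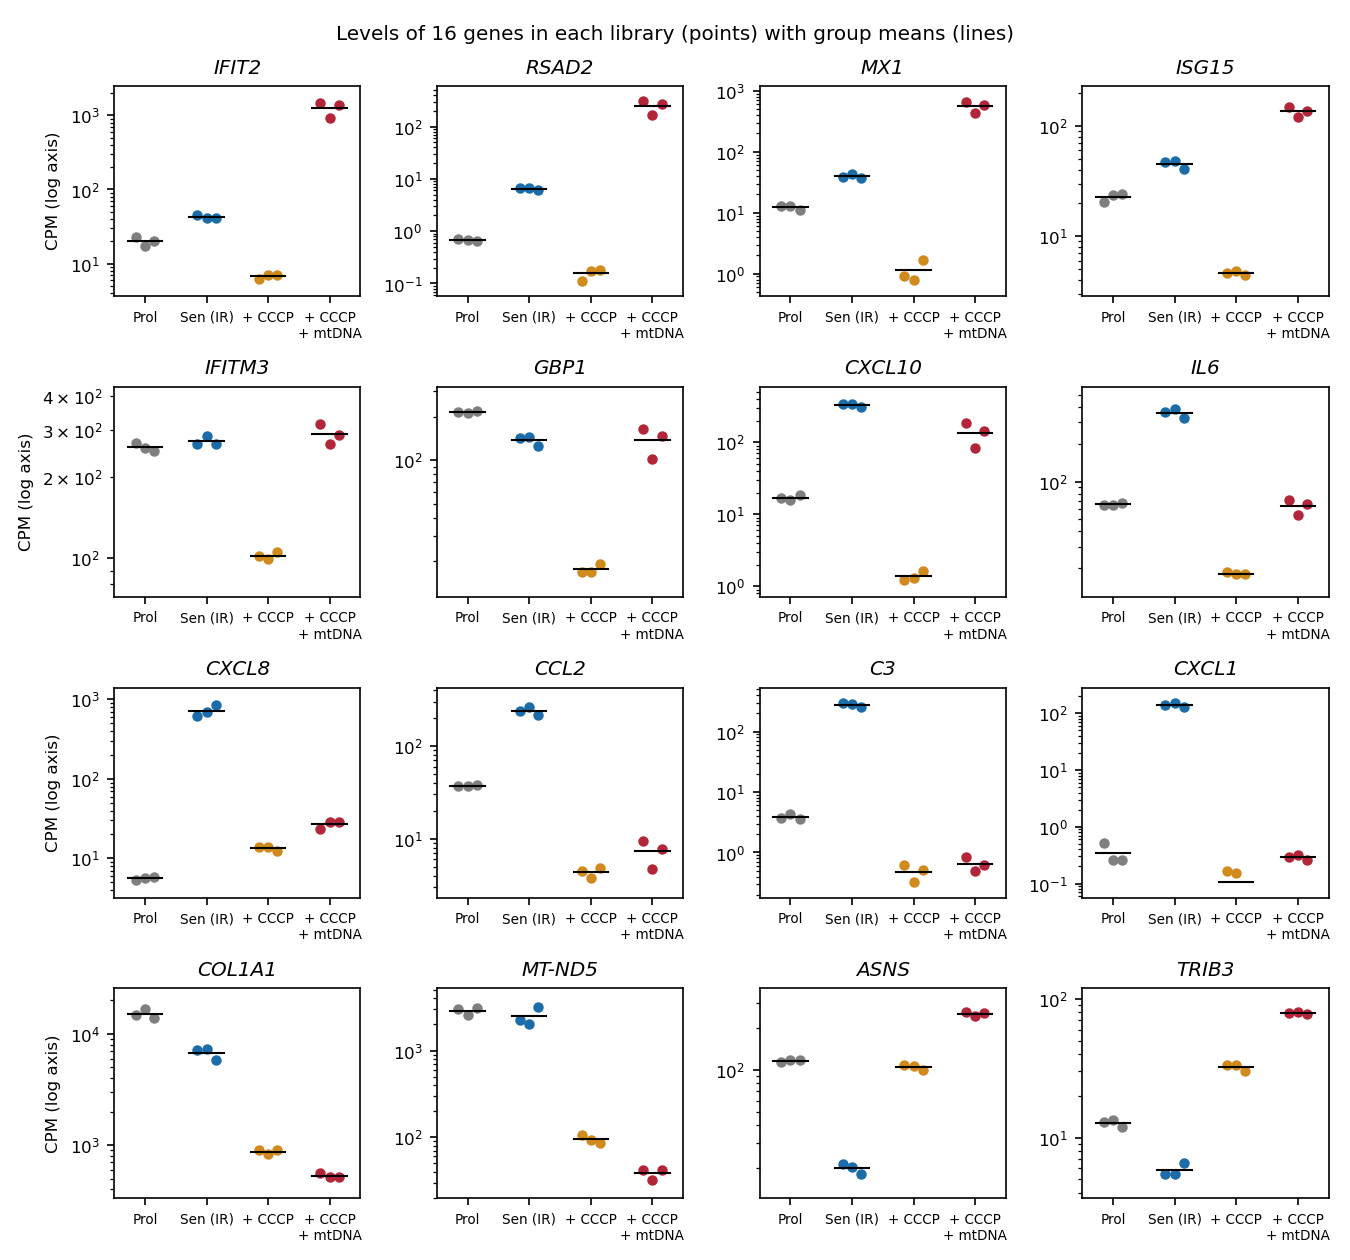
CPM on a log axis of 16 genes in each library (points, replicates 1 to 3 from left to right) of Prol and of the intact, depleted and transfected senescent groups, with group means as lines; 1 CXCL1 library at 0 counts cannot be drawn on a log axis. IFIT2, RSAD2, MX1 and ISG15 end above Sen (IR), IFITM3 and GBP1 level with it, CXCL10, IL6, CXCL8 and CCL2 between it and CCCP, C3, CXCL1, COL1A1 and MT-ND5 low, and ASNS and TRIB3 high.

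Among the 8 largest falls from Sen (IR), those of C3, EHF and SLCO2B1 lay outside the lists. C3, the central complement protein (chr19:6677704-6730562), was measured at 294, 291 and 255 CPM in Sen (IR), 0.613, 0.328 and 0.508 CPM in Sen (IR) + CCCP, and 0.831, 0.503 and 0.613 CPM with mtDNA (log2 fold change over Sen (IR) -8.75, SE 0.12, adjusted p = 2.0e-22). EHF, an ETS-family transcription factor, fell from 26.7, 29.5 and 28.4 to 0.181, 0.323 and 0.0968 CPM (-7.13). SLCO2B1, an organic anion transporter, had 334, 203 and 215 counts in Sen (IR) and 1, 0 and 0 with mtDNA. In each of these genes the intact and transfected libraries were far apart, and the difference between mtDNA and Sen (IR) + CCCP was not called (adjusted p = 0.34 for C3, 0.51 for EHF and 0.27 for SLCO2B1).

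Matrix and contractile genes of fibroblasts stayed low. Of 22 collagen and matrix genes, 20 were lower than in Sen (IR) (90.9%, against 32.5% of all genes) and 2 higher (9.09%, against 35%). Their median was -1.54, and 15 were classed as left lost, as were 8.6% of all genes. Without Sen (IR) replicate 3, 18 were lower (median -1.48). COL1A1 and COL1A2, the chains of type I collagen, did not rise from the depleted level but fell below it. COL1A1 was measured at 7220, 7300 and 5860 CPM in Sen (IR), 903, 828 and 900 CPM in Sen (IR) + CCCP, and 559, 515 and 521 CPM with mtDNA (log2 fold change -0.72 against Sen (IR) + CCCP, adjusted p = 2.4e-06, and -3.68 against Sen (IR), adjusted p = 4.7e-18). COL1A2 went from 9840, 9540 and 7660 to 1300, 1310 and 1410 and then to 1020, 922 and 958 CPM. COL15A1 and COL6A3 were the genes that were higher than in Sen (IR), with log2 fold changes of 1.21 and 0.74. Sen (IR) replicate 3 was the lowest of the 3 intact libraries for COL1A1 and COL1A2. Contractile genes, which mark the myofibroblast state, were lower in 11 of 12 (91.7%, against 32.5% of all genes), at a median of -2.51. ACTG2, the enteric smooth muscle actin, was at 667, 657 and 561 CPM in Sen (IR), 21.9, 20.3 and 20.9 CPM in Sen (IR) + CCCP, and 28, 25.3 and 23.9 CPM with mtDNA.

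Of 22 SASP growth factors and IGF-binding proteins, 9 were higher (40.9%, against 35% of all genes) and 10 lower (45.5%, against 32.5%), at a median of -0.23, which was -0.0817 without mtDNA replicate 1. IGFBP3, which binds insulin-like growth factors, was left lost at 6000, 5950 and 4480 against 401, 544 and 451 CPM. IGFBP5, of the same family, was at 6300, 6330 and 6830 against 2130, 2180 and 2220 CPM. KITLG, the ligand of KIT, and AREG, a ligand of the EGF receptor, were already gained with CCCP and were higher again with mtDNA, KITLG at 43.1, 41.8 and 45.9 CPM in Sen (IR) and 240, 217 and 234 CPM with mtDNA, AREG at 6.62, 6.25 and 5.58 and at 26.7, 25.5 and 28 CPM. Of 19 proteases and inhibitors, 14 were lower (73.7%, against 32.5% of all genes) and 3 higher (15.8%, against 35%), at a median of -0.45. In Sen (IR) + CCCP, 15 of the 19 were already lower than in Sen (IR) and 1 higher (median -0.60). With mtDNA, MMP1, the interstitial collagenase, was among the higher ones, from 516, 526 and 424 to 728, 715 and 688 CPM. MMP12, the macrophage elastase, was among the lower ones, from 5.14, 4.22 and 4.61 to 0.614, 0.251 and 0.290 CPM. Depletion alone had already lowered MMP12. Before scaling for depth, it held 219, 110 and 134 counts in Sen (IR), 8, 11 and 7 in Sen (IR) + CCCP, and 17, 7 and 9 with mtDNA.

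**Figure D5:**
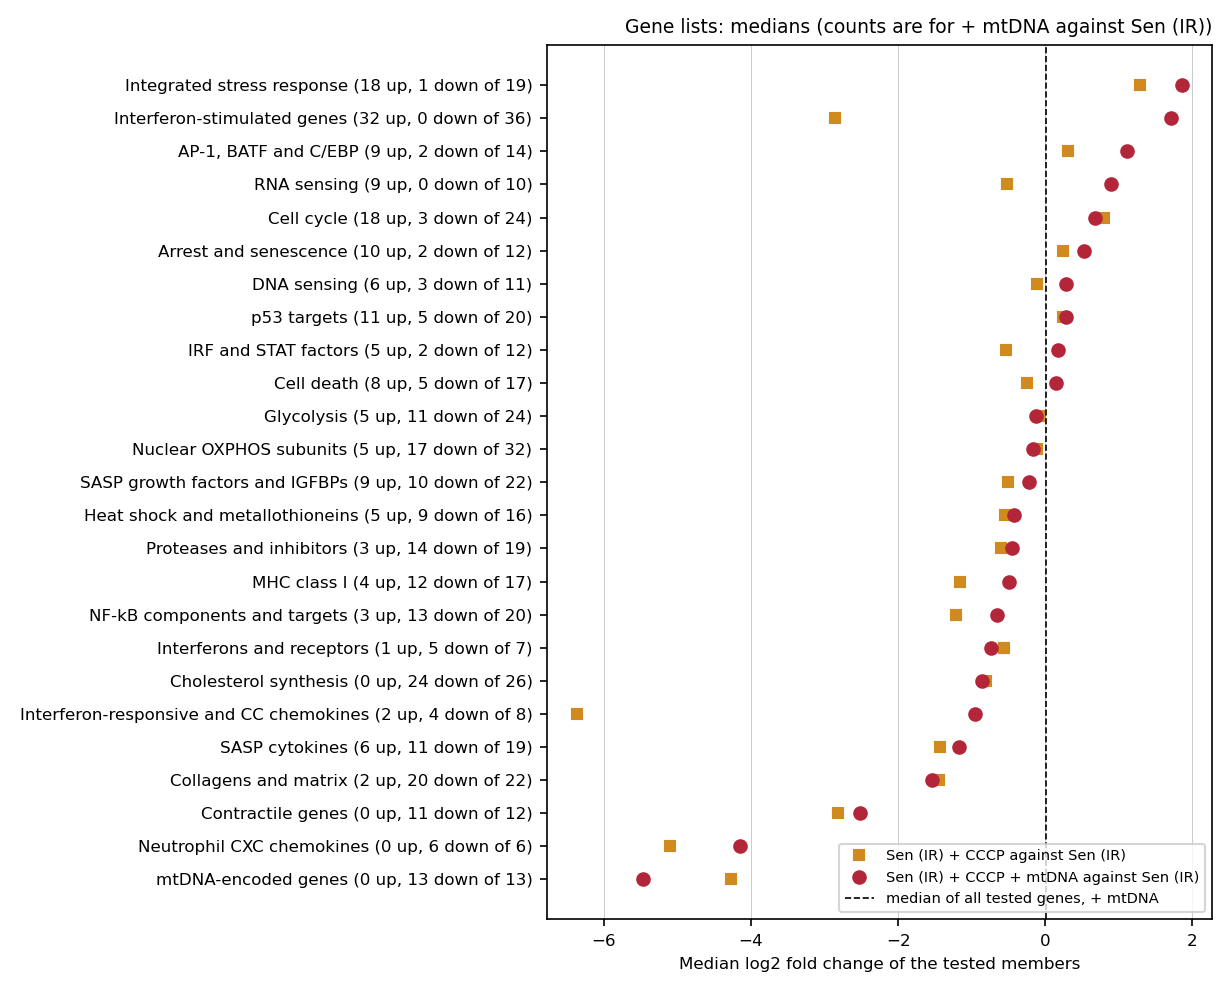
Median log2 fold change of the tested members of each of 25 gene lists in Sen (IR) + CCCP (squares) and Sen (IR) + CCCP + mtDNA (circles), both against the same Sen (IR) libraries, with the number of members called with mtDNA beside each name and the median of all genes (0.01) as a dashed line. ISGs lie at -2.85 with CCCP and 1.71 with mtDNA, whereas collagens, contractile genes, cholesterol synthesis and cell cycle show the circle and square close together.

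Stress genes that were high after depletion were higher still with mtDNA. Of 19 integrated stress response genes, which follow the factor ATF4, 18 were higher than in Sen (IR) (94.7%, against 35% of all genes). The 1 lower gene was PYCR1 (5.26%, against 32.5%), and the median was 1.86. Against Sen (IR) + CCCP, 16 of the 19 were higher, PYCR1 among them (84.2%, against 10.7%). ASNS, asparagine synthetase (chr7:97851677-97872542), was measured at 21.2, 20.2 and 17.9 CPM in Sen (IR), 108, 106 and 100.2 CPM in Sen (IR) + CCCP, and 258, 241 and 256 CPM with mtDNA (log2 fold change over Sen (IR) 3.67, SE 0.06, adjusted p = 1.8e-21). TRIB3, a pseudokinase induced by ATF4, went from 5.44, 5.48 and 6.61 to 33.5, 33.5 and 30.0 and then to 79.1, 80.0 and 77.2 CPM. ATF4 itself was at 595, 612 and 621 CPM in Sen (IR) + CCCP and 593, 604 and 583 CPM with mtDNA, after 173, 169 and 155 CPM in Sen (IR), and was chosen for mention after its values were seen. PYCR1, a proline synthesis enzyme of mitochondria, was the member that was lower (26.8, 26.5 and 22.2 against 10.6, 11.9 and 12 CPM). Of 14 AP-1, BATF and C/EBP factors, 9 were higher (64.3%, against 35% of all genes) and 2 lower (14.3%, against 32.5%), at a median of 1.11. BATF2, an interferon-inducible member, overshot from 2.63, 2.88 and 2.41 to 36, 25.2 and 32.5 CPM, whereas FOSB, an immediate early gene, was left gained at 1.78, 3.22 and 2.51 against 20.7, 30.5 and 24.7 CPM. Of the 8 largest rises over Sen (IR), 3 were of genes already gained with CCCP, namely FAM167A, ID1, an inhibitor of helix-loop-helix factors, and MKX, a homeobox factor of tendon, with log2 fold changes of 4.22, 4.13 and 4.

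Metabolic genes were mostly as low as in depleted cells or little changed. Of 26 cholesterol and fatty acid synthesis genes, 24 were lower than in Sen (IR) (92.3%, against 32.5% of all genes), at a median of -0.86. Against Sen (IR) + CCCP, 1 was called higher and 1 lower (3.85% each, against 10.7% and 7.4% of all genes). HMGCS1, an early enzyme of the pathway, was at 91.7, 84.4 and 83.1 CPM in Sen (IR), 23.1, 23.3 and 21.8 CPM in Sen (IR) + CCCP, and 24.7, 22.0 and 22.7 CPM with mtDNA. SQLE, squalene epoxidase, was also left lost (log2 fold change -1.56 against Sen (IR) and 0.01 against Sen (IR) + CCCP). Of 32 nuclear genes for subunits of oxidative phosphorylation, 17 were lower (53.1%, against 32.5% of all genes) and 5 higher (15.6%, against 35%). Their median was -0.16, and the gap was largest for ATP5F1A, the ATP synthase α subunit (421, 428 and 356 against 222, 218 and 209 CPM). Glycolysis genes were lower in 11 of 24 (45.8%, against 32.5% of all genes) and higher in 5 (20.8%, against 35%), at a median of -0.13. EEF1A1, an elongation factor with many processed copies in the genome, so that its reads are uncertain, was left lost at 5830, 5770 and 6350 against 1410, 1410 and 1440 CPM. Of 16 heat shock and metallothionein genes, 5 were higher (31.2%, against 35% of all genes) and 9 lower (56.2%, against 32.5%), at a median of -0.43. HSPB1, a small chaperone, was left lost at 193, 201 and 178 against 54.0, 50.2 and 48.8 CPM.

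Of 12 arrest and senescence genes, 10 were higher (83.3%, against 35% of all genes) and 2 lower (16.7%, against 32.5%), at a median of 0.52. The higher ones include CDK inhibitors and also genes known to be low in senescent cells, LMNB1, HMGB1 and HMGB2, so the count has no single direction with respect to arrest. In Sen (IR) + CCCP, before any mtDNA, 8 of the 12 were already higher than in Sen (IR) (66.7%, against 34% of all genes). There 2 were lower (16.7%, against 31.3%), and the median was 0.24. With mtDNA, 5 of the 12 were higher than in Sen (IR) + CCCP (41.7%, against 10.7%) and 7 were not called. CDKN1A, which encodes p21, was measured at 981, 1040 and 949 CPM in Sen (IR) and 1110, 1220 and 1120 CPM with mtDNA (log2 fold change 0.22, SE 0.05, adjusted p = 6.5e-04). It was at 1100, 1130 and 1060 CPM in Sen (IR) + CCCP, and mtDNA was not called against that group (adjusted p = 0.43). CDKN2A, the p16 locus, was at 6.38, 7.40 and 6.16 against 8.99, 8.55 and 9.17 CPM (0.43, adjusted p = 6.8e-04), and CDKN2B, the adjacent p15 gene, at 31.8, 32.1 and 34.1 against 82.3, 76.2 and 83.2 CPM (1.3). In Sen (IR) + CCCP, CDKN2A was at 6.77, 6.69 and 5.88 CPM and CDKN2B at 44.2, 42.8 and 41.3 CPM. LMNB1, lamin B1, which is low in senescence, was at 8.89, 9.01 and 7.64 CPM in Sen (IR), 13.6, 12.4 and 12.3 CPM with mtDNA, and 25.0, 22.6 and 24.4 CPM in Prol. Before scaling for depth, LMNB1 held 424, 578 and 370 counts in Sen (IR) + CCCP and 377, 346 and 382 with mtDNA. Total counts were 31787594, 35655026 and 24624886 in Sen (IR) + CCCP, and 26025333, 25964689 and 28988516 with mtDNA. The unscaled counts follow this depth, so they give no direction between these groups. HMGB2, a chromatin protein, was at 18.3, 19.0 and 14.7 CPM in Sen (IR), 35.8, 37.1 and 35.2 CPM in Sen (IR) + CCCP, 40.2, 42.7 and 39.4 CPM with mtDNA, and 44.6, 40.1 and 44.1 CPM in Prol. Cell cycle genes were higher than in Sen (IR) in 18 of 24 (75%, against 35% of all genes) and lower in 3 (12.5%, against 32.5%). Their median was 0.68, and 5 of them fell with mtDNA from Sen (IR) + CCCP (20.8%, against 7.4%). In Sen (IR) + CCCP itself, 18 were already higher than in Sen (IR) (75%, against 34%) and 1 lower (4.17%, against 31.3%). The median there was 0.80. MKI67, the proliferation marker, was at 13.7, 14.3 and 17.8 CPM in Sen (IR), 23.2, 26.4 and 28.6 CPM with mtDNA, and 58.8, 60.2 and 58.3 CPM in Prol. PLK1 and CCNB1, which act at entry into mitosis, were lower than in Sen (IR), with log2 fold changes of -0.76 and -1.01.

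Of 17 death genes, 8 were higher (47.1%) and 5 lower (29.4%), near the 35% and 32.5% of all genes (median 0.15). CASP1, the inflammasome caspase, was at 40.6, 38.4 and 35.9 CPM in Sen (IR), 40.1, 41.0 and 45.9 CPM in Sen (IR) + CCCP, and 88.0, 62.5 and 78.7 CPM with mtDNA. MLKL, the pore former of necroptosis, was at 14.6, 13.9 and 13.7, then 13.3, 12.9 and 12.3, then 31.2, 29.2 and 31.7 CPM. In both genes the transfected libraries lay above all others of these groups. TNFRSF10B, a death receptor for TRAIL, was lower (-0.60). Before scaling for depth, it held 16499, 18273 and 12186 counts in Sen (IR) + CCCP and 12943, 13848 and 15259 with mtDNA. Unscaled counts follow depth, which differed, so they give no direction between these groups. Of 20 p53 targets, 11 were higher (55%, against 35% of all genes) and 5 lower (25%, against 32.5%), at a median of 0.28. In Sen (IR) + CCCP, 12 were already higher (60%, against 34% of all genes) and 4 lower (20%, against 31.3%), at a median of 0.24. GDF15, a stress cytokine, rose from 48.7, 50.5 and 39.2 to 121, 132 and 116 CPM, with 82.4, 86.9 and 78 CPM in Sen (IR) + CCCP. TP53I3 fell from 46.0, 45.8 and 41.5 to 17.7, 19.7 and 19.0 CPM. Before scaling for depth, TP53I3 held 710, 817 and 537 counts in Sen (IR) + CCCP and 491, 550 and 590 with mtDNA. As for TNFRSF10B, these counts give no direction between the groups.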

How the data were processed

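RNA-seq of polyA RNA from IMR90 cells was represented by 18 libraries, 3 in each of 6 groups, assigned by their labels. Per the submitters' processing notes, Trimmomatic 0.36, STAR 2.5.2b and featureCounts of Subread 1.5.2 were used with build GRCh38, and the raw counts per gene were deposited by the authors without scaling. A second deposited table gives TPM, which served here only for summed levels and for levels compared between genes. Whether counting used strand is not given in the sources used here, so reads of overlapping and antisense genes cannot be told apart, and near-identical copies (HLA genes, IFITM genes, DDX60 and DDX60L, processed copies of EEF1A1) can share reads.

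A single quasi-likelihood model (edgeR 4.0.16, R 4.3.3) with a mean for each of the 6 groups was fitted to the 18 libraries (TMM, filterByExpr, common biological coefficient of variation 0.0644), and contrasts were called at a Benjamini-Hochberg adjusted p under 0.05. Gene positions are GENCODE 44 on GRCh38. A group at 0 counts was given a floor of 3 counts per library. In simulated data with 200 changed genes among 16300, edgeR recovered 91.75% of those changed by 1 on the log2 scale and 100% of those changed by 2, with 10 false calls. The simulation gave all genes the same spread and left most unchanged. In the data 67.5% of genes were called against Sen (IR), so these rates need not hold there. The alternatives were DESeq2 1.42.0, its size factors, other filters and thresholds, mtDNA-encoded genes left out, 9 libraries only, a replicate block and each library left out.

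The 25 gene lists and the comparison itself were chosen with earlier results of these data known. Genes named are the 8 largest rises and falls of at least 5 CPM, the 5 most abundant of each class of lost genes and of newly high genes, the 2 largest rises and falls per list and a fixed set of cytokine, interferon and arrest genes. Clone names, LINC names and pseudogenes were left out of the first and second of these. Genes outside this rule (IRF9, ATF4, HMGB1, VIM, BST2, IL15, LINC00641, TNFRSF10D) were chosen after their values were seen. Of the 57500 genes, 485 had no symbol, and every count column had a sample.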

Additional observations from a re-analysis of the deposited data

How the results depend on the processing

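Deviations of same-numbered Sen (IR) and Sen (IR) + CCCP + mtDNA libraries correlated at only 0.0293, 0.0786 and 0.118. Low values can also come from counting error, so they cannot show whether same-numbered libraries were prepared together. With the replicate number as a block, 5954 genes were higher and 5494 lower than in Sen (IR). No list median or called named gene changed sign under the alternatives run for them. Those left out the other count filters and the fits without a Sen (IR) + CCCP library. The median over all genes, 0.0111, was -0.00435 with DESeq2 size factors and -0.00514 with DESeq2. More genes were lower than higher once a 2-fold change was asked for. With each library left out in turn, 5671 to 6044 genes were higher and 5086 to 5470 lower than in Sen (IR), 1429 to 1519 were left lost, 111 to 186 partly restored, 12 to 17 restored and 60 to 68 overshot. With DESeq2, a nominal p and a log2 fold change of 0.5, 3624 genes were higher, and with edgeR and at least a 2-fold change 1505 were higher and 2080 lower. Against Sen (IR) + CCCP, 737 to 1493 genes were lower when a library was left out (737 without Sen (IR) + CCCP replicate 1, 778 and 777 without mtDNA replicates 1 and 3).

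Class counts followed the fold that defined a loss. With any fold past the threshold, 5312 genes were lost, 4194 left lost, 319 partly restored, 210 restored and 133 overshot, and 5776 were gained, 4822 left gained, 203 partly returned, 159 returned and 311 newly high. With at least 4-fold, 557 were lost, 435 left lost, 52 partly restored, 2 restored, 18 restored with a wide interval and 33 overshot, and 221 were gained, 204 left gained, 9 partly returned and 0 returned. At a minimum of 10 counts in every library, 1182 were lost, 955 left lost, 15 restored with a wide interval and 840 gained. With the 9 libraries alone, 16 were restored with a wide interval, against 33 in the fit of all 18. The medians were -1.38 for collagens and -2.75 for contractile genes. Leaving out 1 library gave 32 to 77 partly returned and 0 to 2 returned genes. List medians were rerun without a Sen (IR) or a mtDNA library only. They were -1.06 to -0.775 for interferon-responsive and CC chemokines and -0.292 to -0.0817 for SASP growth factors. The causes of these changes were not tested.

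Named genes, called or not, were followed through the alternatives other than the other count filters and the fits without a Sen (IR) + CCCP library. Against Sen (IR), 1390 values stayed on the same side of the threshold, 5 passed it that had not (IFI27, LY6E, TLR3 and TRIM5) and 0 ceased to pass. Against Sen (IR) + CCCP, 24 ceased to pass and 6 newly passed. Depth limits genes of a few counts, such as CXCL6, CSF3 and SLCO2B1 with mtDNA.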
